A study of Ginkgo biloba with 6 samples.

Results

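In leaves of truncated Ginkgo biloba trees, 228 of the 26044 gene IDs listed in the expression table were higher than in control leaves by a rule that was applied to the 6 libraries themselves. Ginkgo biloba is a gymnosperm tree grown for its leaves, whose flavonoids are extracted for medicinal use. The rule took the 25439 IDs with Gb numbers, kept the 15788 with a mean of at least 1 FPKM and left out the 100 of highest mean, so that 15688 IDs were open to it. FPKM counts the sequenced fragments of a gene relative to the length of the transcript and to all fragments mapped in that library. An ID was a member if its lowest value in truncated leaves was above its highest value in control leaves and if the group means of log2(FPKM + 1) differed by at least 1, a 2-fold change on that scale. Of the IDs open to the rule, 1124 met the first condition (7.16%) and 228 met both (1.45%). The members were thus chosen on the difference between truncated and control leaves, and that difference is described here and not tested.

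All trees were 5 years old and of the cultivar Fozhi, planted at a row spacing of 0.6 m in a nursery for leaf harvest. The truncated group consisted of 30 trees cut back to a short trunk of 85 cm, and the control group of 30 trees left uncut. RNA from leaves taken at harvest was sequenced as 3 libraries per group, with the letters A, B and C. How many trees went into a library, and whether libraries of a group came from different trees, is not stated in the labels, so the p-values below measure only a spread between libraries that may be partly technical.

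Cutting a tree back to a short trunk forces dormant or newly formed buds to grow out, and the leaves on such shoots often keep juvenile features. This is the sense in which the series title speaks of rejuvenation, and the title asks whether it raises flavonoid accumulation. Flavonoids are made from phenylalanine through the phenylpropanoid pathway, in which phenylalanine ammonia-lyase opens the route and chalcone synthase commits it to flavonoids. In leaves they serve mainly as screens against ultraviolet light and as antioxidants. The deposited table does not pair the IDs with gene names, descriptions or positions, so no member could be placed in this or any other pathway. For the same reason the leaf identity of the libraries and the presence of other cell types could not be checked against marker genes. In these bulk samples, more cells of a type and more RNA per cell cannot be told apart.

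The 6 libraries had summed FPKM between 655395 and 738322, and between 14912 and 16705 IDs at 1 FPKM or more. The number of fragments is not given. The spacing of low values put the depth of the libraries at 0.932 to 1.09 times that of control A. Control B and truncated C stood apart, with 38.4% and 38.2% of their summed FPKM in their 100 highest IDs, against 43.7% to 45.4% in control A, control C and truncated A. Truncated B lay to the other side, at 50.7%. Their deviations from their group means correlated at 0.68 across the tested IDs, which are not independent replicates. Across 16054 tested IDs, including those with XLOC numbers, limma called 0 higher in truncated leaves at a Benjamini-Hochberg adjusted p under 0.05 (0%), and 690 at an unadjusted p under 0.05 (4.3%).

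The members were mostly weakly to moderately expressed. Their mean FPKM over the 6 libraries ran from 1.01 to 679, with a median of 5.91, against a median of 7.46 for all IDs open to the rule. Of the 228 members, 106 averaged 1 to 5 FPKM, 106 averaged 5 to 50 FPKM and 16 averaged at least 50 FPKM, or 46.5%, 46.5% and 7.02%. Among all IDs open to the rule these classes held 39.8%, 49.3% and 10.99%.

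The median member level was 1.66 FPKM in control A, 1.74 in control B and 3.49 in control C. In the truncated libraries it was 6.87 FPKM (A), 9.24 FPKM (B) and 9.70 FPKM (C). The medians of the libraries therefore did not overlap between the groups, as the rule ensures, but control C lay between the other controls and truncated A. The members together made up 0.275%, 0.312% and 0.449% of the summed FPKM of control A, B and C, and 0.73%, 0.90% and 1.56% of that of truncated A, B and C. Without the 2 most abundant members the share in truncated C was 0.868%, close to the 0.808% of truncated B.

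**Figure D1:**
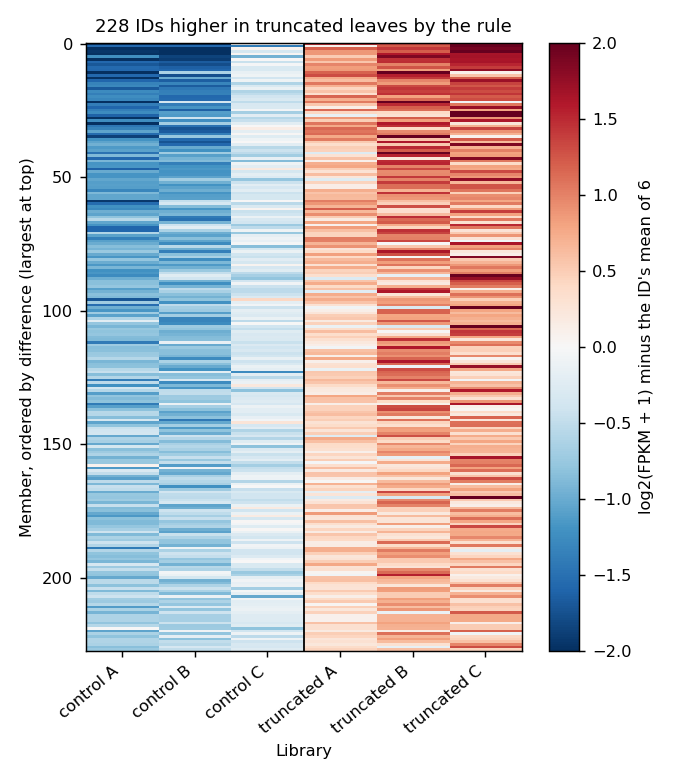
Each row is 1 of the 228 members, ordered by the difference between group means, and each column 1 library. Colour gives log2(FPKM + 1) minus the mean of that ID over the 6 libraries, with the scale ending at -2 and 2. Control C is paler than controls A and B over most of the set.

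The differences between group means on the log2(FPKM + 1) scale ran from 1.002 to 3.13, with a median of 1.34. A difference of at least 2 was reached by 27 members and one of at least 3 by 3 members. In 209 members no control was listed at 0, and in these the ratio of mean FPKM in truncated to control leaves ran from 2.04 to 16.0 with a median of 3.29. These ratios of mean FPKM are on another scale than the log2(FPKM + 1) differences. In 19 members (8.33%) at least 1 control was listed at 0, against 0.574% of all IDs open to the rule. In 0 members were all controls listed at 0. All 3 controls were below 1 FPKM in 35 members (15.4%), against 0.701% of all IDs. Among the 896 IDs that met the first condition with a difference under 1, a control was listed at 0 in 0.112%. All controls were below 1 FPKM in 4.35% of those. The rule favours IDs with low controls, and IDs with all controls below 1 FPKM pass the mean filter only through their truncated values. Nothing is therefore read from these shares. All 3 truncated libraries were at 1 FPKM or more in 223 members (97.8%), against 86.3% of all IDs. That share was 98.9% in the 896 IDs that met the first condition with a difference under 1.

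Gb_20314 had the largest difference of any member. It was listed at 0.56 FPKM in control A, 0.20 in control B and 6.22 in control C, and at 18.2, 16.7 and 25.4 FPKM in truncated A, B and C. Control C alone was well above the other controls, though still below every truncated library. Its control mean was 2.33 ± 3.38 FPKM and its truncated mean 20.1 ± 4.68 FPKM (SD, n = 3 each). The log2 difference was 3.13 ± 0.65 (SE from limma). With each library left out in turn, this difference ran from 2.63 (without control B) to 3.92 (without control C).

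The member with the next largest difference was almost unlisted in control leaves. Its control values were 0, 0 and 0.13 FPKM, and its truncated values were 2.21, 6 and 26.7 FPKM. The gap between its lowest truncated and highest control value, 1.51 on the log2(FPKM + 1) scale, was the widest of the set. Its truncated libraries themselves differed widely, with truncated C the highest.

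The members in places 3 to 5 of this order shared the pattern of Gb_20314. The third had 0.32, 0.69 and 6.63 FPKM in control A, B and C and 15.7, 18.4 and 26.4 FPKM in truncated A, B and C. The fourth had 4.96, 4.24 and 17.0 FPKM in the controls and 40.7, 51.9 and 117 FPKM in the truncated libraries. The fifth had 1.16, 0.87 and 7.76 FPKM in the controls and 14.6, 24.98 and 25.8 FPKM in the truncated libraries. In all of these, control C was at least 3 times as high as control A or B, and truncated C was the highest library.

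The most abundant members varied in pattern. Gb_25968 had the highest mean of the set and was listed at 237, 270 and 341 FPKM in control A, B and C and at 415, 367 and 2446 FPKM in truncated A, B and C. Truncated C was far above truncated A and B, which lay only a little above control C. Its control mean was 283 ± 53.2 FPKM and its truncated mean 1076 ± 1187 FPKM (SD, n = 3 each), so the spread among truncated libraries exceeded the truncated mean. The log2 difference of 1.36 fell to 0.48 without truncated C, and without that library Gb_25968 would not have been a member.

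The second most abundant member followed nearly the same course, with 194, 238 and 284 FPKM in control A, B and C and 364, 314 and 2108 FPKM in truncated A, B and C. Over the 6 libraries its log2(FPKM + 1) value never differed from that of Gb_25968 by more than 0.29, the closest match among pairs of members that both averaged at least 50 FPKM. Whether the 2 are near-identical copies that share reads was not tested, so the level of each is uncertain.

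The third most abundant member had 112, 168 and 128 FPKM in control A, B and C and 183, 354 and 743 FPKM in truncated A, B and C. The fourth was more even among truncated libraries, with 144, 144 and 237 FPKM in the controls and 302, 356 and 420 FPKM in the truncated libraries. The fifth had 152, 105 and 190 FPKM in the controls and 318, 377 and 269 FPKM in the truncated libraries. Truncated C was thus the highest library in the first 4 of these and the lowest truncated library in the fifth.

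**Figure D2:**
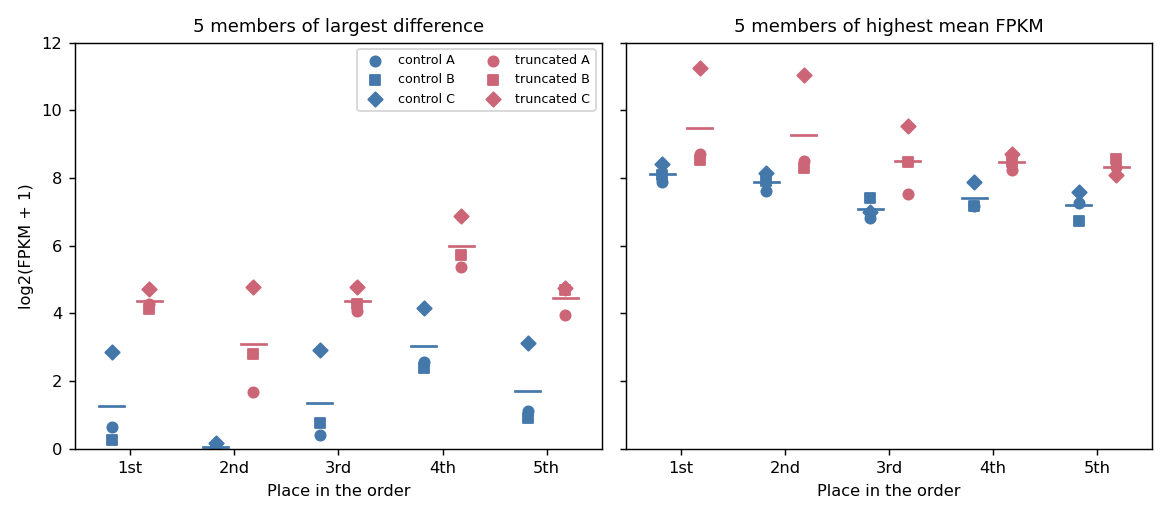
The vertical axis gives log2(FPKM + 1) in each library for the 5 members of largest difference (left) and of highest mean FPKM (right). Each point is 1 library, the shape gives its letter and the horizontal bars are group means. Control C stands above controls A and B in the left panel, and truncated C far above the other libraries for the first 2 members in the right panel.

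The rule treats the controls alike and does not name which is highest, but it drops IDs whose highest control reaches a truncated value. Shares among all IDs are therefore not a like background for the order of the controls. Control C was the highest control in 189 of the 228 members (82.9%), control B in 26 and control A in 12. Among all IDs open to the rule control C was highest in 27.3%, and control B, the highest in 51.5%, was the most frequent. Among the 896 IDs whose groups did not overlap in the same direction but whose difference was under 1, control C was highest in 52.1%. The count of 189 became 188 with libraries scaled to an equal sum, 194 with median-of-ratios scaling and 196 after quantile normalization. Control C was at least 2-fold above both other controls on the log2(FPKM + 1) scale in 27 members (11.8%), a distance reached in 0.325% of all IDs open to the rule. For control A and for control B this count was 0 of 228, against 0.051% and 6.85% of all IDs open to the rule. Among the 896 IDs of smaller difference it was 0 for each control.

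The place of each control was then expressed on the FPKM scale as a percentage of the way from the mean of the other 2 controls, set to 0, to the truncated mean, set to 100. The median position of control C was 23.6% (quartiles 13.5% and 32.04%), and it was above 0 in 213 members. The median position was -14.1% for control A and -12.1% for control B. Control C is part of the baseline for both, so its height alone lowers their positions. Control B minus control A had a median of 0.01 on the log2(FPKM + 1) scale over the members, with quartiles of -0.19 and 0.35, and the 2 libraries were at least 2-fold apart in 17 members (7.46%), against 10.4% of all IDs open to the rule. Control C exceeded control A by a median of 0.60 and control B by a median of 0.56. Over all IDs open to the rule these medians were 0.16 for control B minus control A, 0.05 for control C minus control A and -0.09 for control C minus control B.

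**Figure D3:**
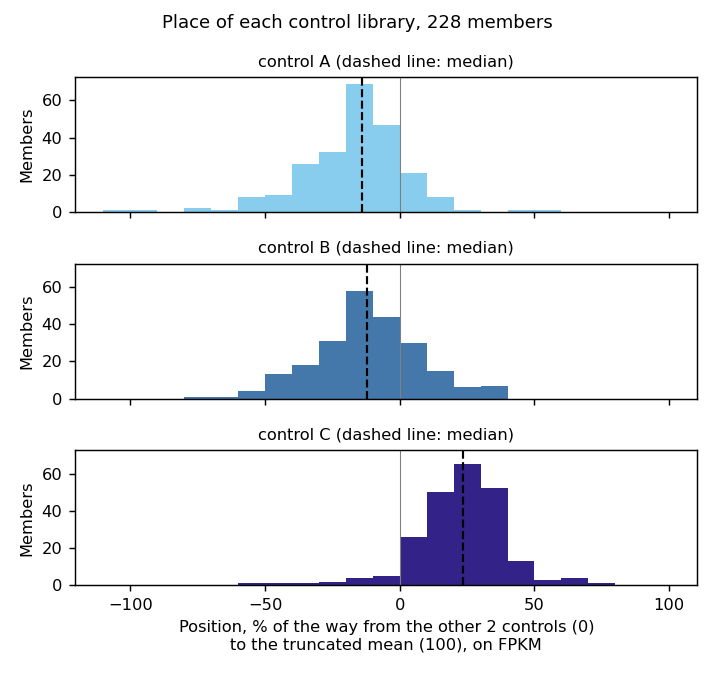
Histograms of the position of each control library over the 228 members, in % of the way from the mean of the other 2 controls (0) to the truncated mean (100) on the FPKM scale. The vertical axis counts members, and the dashed medians are at -14.1% for control A, -12.1% for control B and 23.6% for control C.

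The position of control C was also read in IDs chosen without it. When the rule was applied to controls A and B and the 3 truncated libraries, 348 IDs met it, 222 of them members. Control C was below all truncated libraries in 291 of these 348 (83.6%), and its median position was 27.6% (quartiles 18.2% and 38.8%). The same reading gave a median position of -9.97% for control A over 192 IDs and of -5.11% for control B over 249 IDs. Choosing IDs for low values in the remaining controls tends to raise the position of whichever control is left out, so these positions are not compared with 0. Nor are they separate readings, since control C is part of the baseline for controls A and B. Whether the labels, the trees sampled or the processing set control C apart was not tested.

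Among the truncated libraries, truncated A was nearest to the controls. It was the lowest truncated library in 118 members (51.8%), against 17.0% of all IDs open to the rule and 41.0% of the 896 IDs of smaller difference whose groups do not overlap. It was the highest in 13 members (5.70%), against 22.5% of all IDs open to the rule. Truncated B was highest in 114 members (50%) and truncated C in 101 (44.3%), against 24.9% and 52.4% of all IDs. The order of truncated B and C depended on scaling. They were highest in 94 and 119 members with an equal sum, in 149 and 69 with median-of-ratios scaling and in 148 and 62 after quantile normalization. By contrast, truncated A was lowest in 115 to 123 members under each of the 3 other scalings. In 97 members (42.5%) the order was controls A and B lowest, then control C, then truncated A, then truncated B and C. Since the groups of members do not overlap, this only combines control C as highest control with truncated A as lowest truncated library. Whether these went together more often than their separate shares would give was not tested. The same order held in 1.75% of all IDs open to the rule, few of which have groups that do not overlap. Among the 896 IDs of smaller difference, whose groups do not overlap either, it held in 19.8%.

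The members whose highest truncated library was C numbered 101, with median levels of 6.81, 6.66 and 12.9 FPKM in truncated A, B and C. Those whose highest was B numbered 114, with medians of 7.04, 11.5 and 7.47 FPKM. Their controls looked alike, for control C was the highest control in 82 of the 101 and in 97 of the 114. Control B, whose deviations over the whole table resembled those of truncated C, was the highest control in 14 of the 101 and in 10 of the 114. Truncated C exceeded both other truncated libraries at least 2-fold on the log2(FPKM + 1) scale in 20 members (8.77%), against 9.36% of all IDs open to the rule. Truncated B did so in 8 members (3.51%), against 0.395% of all IDs, and truncated A in 0, against 0.236%. The within-group SD on that scale had a median of 0.42 in control and 0.42 in truncated leaves over the members, against 0.23 and 0.34 over all IDs open to the rule.

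A view of the difference that the rule did not use came from leaving out 1 control and 1 truncated library. For each of the 9 such pairs, IDs were chosen by the same rule on the other 4 libraries, and the left-out truncated value was set against the left-out control value. Between 206 and 431 IDs were chosen, of which 154 to 222 were members. In the left-out pair the truncated value was higher for a median of 86.0% of the chosen IDs, from 45.2% to 94.7% over the 9 pairs. Over all IDs open to the rule in the same fits this share had a median of 48.8%, from 35.8% to 62.3%. The share was above that of all IDs in each of the 9 pairs, which share libraries and are not independent. No p is given for this reason.

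The shares were highest with control A left out. There, 93.2%, 94.7% and 89.7% of the chosen IDs were higher in truncated A, B and C, against 54.9%, 38.8% and 62.3% of all IDs. With control C left out, the shares were 89.0%, 86.0% and 70.7%, against 48.8%, 36.7% and 58.6% of all IDs. With control B left out they were 67.0%, 45.2% and 74.0%, against 42.6%, 35.8% and 50.1% of all IDs. The lowest share belonged to control B against truncated B, where the median left-out difference was -0.27 on the log2(FPKM + 1) scale among the chosen IDs and -0.28 among all IDs. For that pair the chosen IDs therefore had nearly the same median difference as all IDs. Their spread was not the same, for 29.7% of them had a left-out difference of at least 1, against 4.69% of all IDs.

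The size of the left-out difference also varied with the control left out. The median left-out difference was 1.06, 1.38 and 1.09 for truncated A, B and C with control A left out. It was 0.54, 0.72 and 0.47 with control C left out, whose values lay nearer to the truncated ones. It was 0.66 and 0.79 with control B left out with truncated A and C. The share of chosen IDs with a left-out difference of at least 1 ran from 15.1% to 68.0%, against 0.879% to 13.1% of all IDs.

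**Figure D4:**
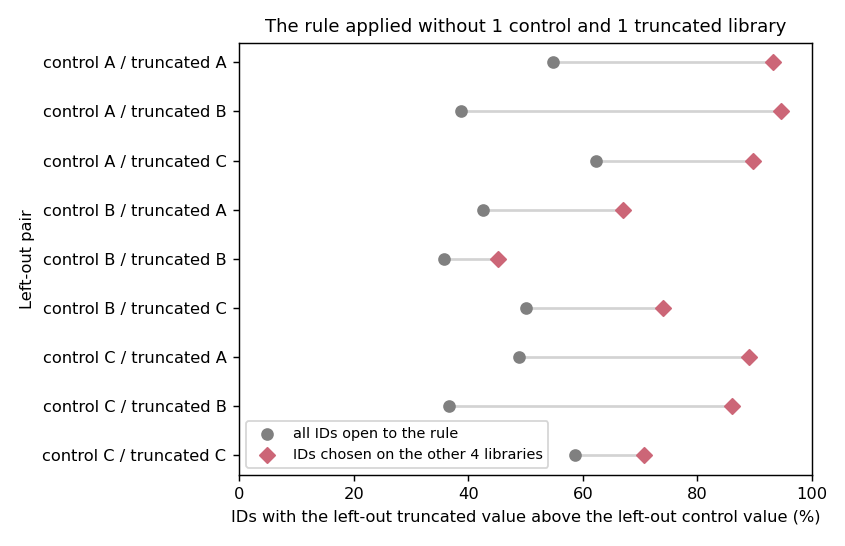
For each of the 9 left-out pairs of libraries, the horizontal axis gives the % of IDs whose left-out truncated value exceeded the left-out control value. Diamonds are IDs chosen by the rule on the other 4 libraries and circles all IDs open to the rule. The diamonds lie to the right of the circles in each pair, by least for control B with truncated B and control C with truncated C.

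IDs lower in truncated leaves were read in the same way. The mirrored rule gave 74 IDs, against the 228 higher ones. Over the 9 left-out pairs, the truncated value was lower for 13.4% to 86.2% of the IDs chosen by the mirrored rule, with a median of 76.4%, against a median of 50.7% of all IDs. In 2 of the 9 pairs, truncated C with control A and with control C, the share was 13.4% and 15.3%, below the 37.5% and 41.2% of all IDs. The difference between the higher and the lower set was not tested.

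No member passed the limma threshold after adjustment over all 16054 tested IDs. Since the fit and the rule used the same contrast, its values only describe the set. The members' adjusted p from limma ran from 0.385 to 0.879, and 224 of the 228 were at an unadjusted p under 0.05, as were 1080 of all 15688 IDs open to the rule (6.88%, in either direction). Nothing is read from that count, since the same contrast chose the members. The standard error of a member's log2 difference had a median of 0.33. Without control C the smallest adjusted p over all IDs was 0.11, and with all libraries it was 0.385.

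The place of members in the numbering of the IDs was not used by the rule. In 15 places consecutive numbers were both members, 14 of them pairs and 1 a run of 3, which together held 31 of the 228 members, so most members had no member next to them. Of the 187 IDs open to the rule that stood 1 number from a member, counted once for each member they adjoin, 32 were members (17.1%), against 1.45% of all IDs open to the rule. The share was 8.87% at a distance of 2 numbers, 7.49% at 3, 7.62% at 4, 1.198% at 5, 5.24% at 6 and 4.19% at 7, and from 2.09% to 2.35% at distances of 8 to 10. Among the 74 IDs lower by the mirrored rule the corresponding share was 2 of 67 (2.99%) at a distance of 1, 0 of 64 at 2 and 8 of 66 (12.1%) at 3. It was 2 IDs at each distance from 4 to 6 (3.23% to 3.39%) and 0 from 7 to 10, against 0.472% of all IDs open to the rule. The difference between the 2 sets in this respect was not tested. Whether neighbouring numbers mean neighbouring positions is not recorded in the table, and sharing of reads between copies in such runs was not tested. Leaving out IDs whose 6 values equal those of another ID, 3 members among them, gave 17.2% at a distance of 1. These 3 members stand in none of the runs, so leaving them out could not lower the count of 32. They lie 3, 4 and 7 numbers from each other, and the shares at those distances were not computed without them.

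The run of 3 had closely similar profiles. Its first ID had 4.55, 3.26 and 9.90 FPKM in control A, B and C and 21.0, 32.7 and 31.0 FPKM in truncated A, B and C. The second had 10.2, 8.36 and 21.3 FPKM in the controls and 44.1, 59.3 and 66.6 FPKM in the truncated libraries. The third had 2.72, 3.41 and 9.83 FPKM in the controls and 15.0, 31.2 and 30.4 FPKM in the truncated libraries. The log2 differences of the 3 were 2.17, 2.10 and 2.17, and in each control C was the highest control and truncated A the lowest truncated library. The most abundant pair of consecutive numbers with like levels had 39.5, 37.6 and 64.1 FPKM in the controls and 129, 155 and 157 FPKM in the truncated libraries for its first ID. Its second ID had 50.3, 49.1 and 82.2 FPKM in the controls and 164, 192 and 207 FPKM in the truncated libraries. Other pairs differed widely in level, such as 1 with a mean difference of 1.13 in an ID at 105 to 377 FPKM and of 1.24 in its neighbour at 2.08 to 24.4 FPKM.

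The 154 IDs next to a member that were not members themselves were read separately. Their median difference between truncated and control leaves was -0.03 on the log2(FPKM + 1) scale, against -0.06 for all 15460 non-members. All 3 truncated values were above all controls in 16 of the 154 (10.4%), against 5.80% of all non-members.

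**Figure D5:**
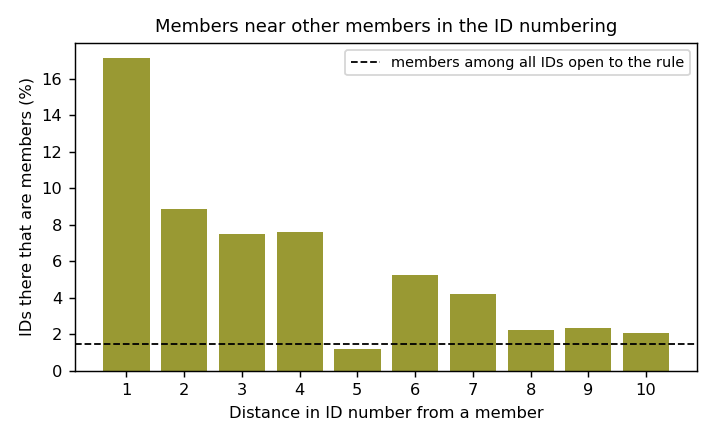
Bars give the % of IDs at each distance in ID number from a member, 1 to 10, that are members themselves. The dashed line marks the 1.45% of members among all IDs open to the rule, and the bar at a distance of 1 stands at 17.1%.

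The set has no sharp edge. The 3 members just inside the threshold on the difference had log2 differences of 1.0017, 1.0018 and 1.0020, and the 3 IDs just outside had 0.9988, 0.9974 and 0.9963. The smallest gaps between the lowest truncated and the highest control value inside the set were 0.018, 0.019 and 0.028. A further 44 IDs had a difference of at least 1 but overlapping groups, and the 3 nearest to membership had gaps of 0, -0.0014 and -0.0078. The first of these had 0.56, 0.93 and 2.98 FPKM in control A, B and C and 6.56, 18.6 and 2.98 FPKM in truncated A, B and C, so that control C equalled truncated C. The members of lowest mean averaged 1.01, 1.06 and 1.06 FPKM, and the 3 IDs just under the filter that met the other conditions averaged 0.993, 0.980 and 0.953 FPKM.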

How the data were processed

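The values are FPKM as deposited by the authors, 1 column per library, rounded to 2 decimals, per the file headers. CASAVA 1.8, TopHat2 and RSEM appear in the submitters' processing notes, which state neither their order nor their role. The build of the genome is not given in the sources used here, nor is its annotation. FPKM divides by the mapped fragments of a library, so abundant genes that take a larger share lower all other values, and no further scaling is recorded. No per-sample column was left unused (0). Depth relative to control A was taken as the most frequent FPKM ratio among IDs at 0.3 to 1.5 FPKM in a library and in control A. The absolute depth is unknown, and no counting intervals are stated.

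Groups came from the treatment labels. The rule and all counts were computed in Python 3.11.15 (numpy 2.4.6, pandas 2.3.3). The limma 3.58.1 fit (R 4.3.3) used log2(FPKM + 1), a group term, all 6 libraries, a mean trend, two-sided tests, Benjamini-Hochberg adjustment and a threshold of 0.05 over IDs that averaged at least 1 FPKM. Simulated data served to check the fit, the rule and the relative depth. The members, comparisons and lists were chosen with earlier results of these data known. Gene lists by name were planned and not formed, since the IDs carry no names. IDs are printed for the member of largest difference and the member of highest mean, and others are described by their place in an order of difference, mean or gap or in the numbering. The runs of consecutive numbers described were picked after their values were seen.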

Additional observations from a re-analysis of the deposited data

How the results depend on the processing

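The set of 228 members became 364 with a pseudocount of 0.1 (all 228 kept) and 122 with a filter of 5 FPKM. It became 661 with a difference of at least 0.5 and 27 with at least 2, as a looser or stricter threshold must. It was 213 to 296 under the other scalings, a pseudocount of 0.5, no filter, the 100 highest IDs kept and XLOC IDs included. With each library left out in turn it ranged from 192 (control A left out) to 348 (control C left out), with 172 to 222 of the members kept, and leaving out control B and truncated C together, chosen after seeing the data, gave 308, with 164 kept. The limma count of 0 called genes stayed at 0 under every alternative run, with a smallest adjusted p of 0.11 (without control C) to 0.992 (without control A). With the letter as a replicate block it was also 0, with 694 IDs at an unadjusted p under 0.05 against 1103. Deviations of libraries of the same letter from their group means correlated at 0.19 for A, -0.58 for B and -0.55 for C. Deviations within a group sum to 0 and so depend on each other, and these values cannot show whether letters pair libraries. The labels do not state a pairing, so the letters were not taken as pairs. The median share over the left-out pairs was 70.3% to 87.8% under its alternatives, and its lowest pair was 38.7% to 55.9%. The log2 difference of Gb_20314 was 2.46 to 4.205 and that of Gb_25968 0.45 to 1.84. The absolute depth is unknown, so what it limits was not measured.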

Other observations

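Of the XLOC loci, which the rule leaves out, 4 met its other conditions, and of the 100 most abundant Gb IDs, 0 did. The mean of the last of those 100 was 779 FPKM, above the 679 FPKM of the most abundant member.

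In the 74 IDs lower in truncated leaves by the mirrored rule, truncated A was the truncated library nearest to the controls in 60 (81.1%). Nearest here means the highest truncated library, which truncated A was in 22.5% of all IDs open to the rule. Control C was the control nearest to the truncated libraries, and so the lowest control, in 31 of the 74 (41.9%). Among all IDs open to the rule, control C was the lowest control in 25.9%. In the higher set, control C was the control nearest to the truncated libraries in 189 of the 228 members. The differences between these shares were not tested.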
